A study of Mus musculus with 6 samples.

Results

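The actin cytoskeleton and focal adhesion genes described here are 37 genes chosen by symbol from the 54100 rows of the deposited count table. Earlier results of these data were known when these genes were chosen. They encode actins, proteins that handle actin monomers, subunits of the Arp2/3 complex, tropomyosins, calponin-like proteins, nonmuscle myosin, crosslinkers, focal adhesion proteins, the nuclear lamina, vimentin and the transcription factor Srf. Each symbol occurred once in the table, and all 37 genes had enough counts to be tested. The cells were fibro-adipogenic progenitors (FAPs), the mesenchymal progenitors of skeletal muscle, sorted as Pdgfra+ cells from the plantaris muscle of C57BL/6 mice. There were 3 libraries from sham and 3 from overloaded muscle, each made from 1000 sorted cells with a protocol that tags transcripts near their 3' end. No other allele, agent or genotype is named in the labels, and the age and sex of the mice and the way and duration of the overload are absent from the sources used here. Nor do these state whether the libraries came from separate animals or from pools, so the p-values rest on the spread between libraries, part of which may be technical. The comparison asks how the progenitors differ when their muscle bears more load.

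Actin exists as monomers and as filaments. Profilin and thymosins hold monomers, cofilin severs old filaments, the Arp2/3 complex starts branches, and tropomyosins and calponin-like proteins coat filaments and decide which partners bind. Nonmuscle myosin pulls on the filaments, and focal adhesions, built on talin, vinculin, zyxin and LIM-domain proteins, tie them to the matrix outside the cell. When monomers are used up, the cofactors MRTF-A and MRTF-B are released to the nucleus and act with serum response factor (SRF) on a DNA element called the CArG box, found in many genes of the actin system. In fibroblasts this system is best known from attachment, migration and contraction.

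Because SRF is both a member and a known regulator of this gene class, the promoters of the members were searched for the CArG box. RefSeq promoter windows on GRCm38.p6, from 250 bases before to 50 bases after a transcription start, were held for 36 of the 37 genes. The entry for Actb was not among them. A CArG box on either strand was present for 5 of the 36 genes (13.9%), against 488 of 27025 genes with a window (1.81%). It was also present for 8 of the 84 other actin pathway genes with a window, so it is not particular to the 36. The 5 are shown because they divide by the test of overload described below, which Srf and Cnn2 passed and Actg1, Myl6 and Vcl did not. Not passing does not show that a gene did not respond, and Actg1 missed the threshold narrowly. Each stretch is written 5' to 3' in the direction of the gene, with the CArG boxes in capitals. That of Srf (chr17:46556185-46556274, minus strand) begins 112 bases before the start and holds 2 boxes, and that of Cnn2 is at chr10:79988514-79988583 on the plus strand. The stretch of Actg1 is at chr11:120348546-120348615 on the minus strand and that of Vcl at chr14:20929148-20929210 on the plus strand. For Myl6 the 30 bases at chr10:128493040-128493069 on the minus strand lie inside the annotated gene, before one of its RefSeq starts.
Srf: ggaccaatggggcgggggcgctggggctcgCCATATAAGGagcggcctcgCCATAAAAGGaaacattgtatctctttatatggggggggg
Cnn2: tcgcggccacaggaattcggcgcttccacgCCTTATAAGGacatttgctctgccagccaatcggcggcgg
Actg1: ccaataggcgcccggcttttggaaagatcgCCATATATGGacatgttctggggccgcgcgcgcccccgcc
Vcl: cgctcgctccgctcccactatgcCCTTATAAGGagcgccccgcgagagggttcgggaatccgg
Myl6: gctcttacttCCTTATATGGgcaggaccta

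The boxes of Cnn2 and Vcl have the same 10 letters, CCTTATAAGG, and begin at positions -56 and -227 from the start. The motif GGAATG, bound by TEAD factors, was found on either strand in 10 of the 36 genes (27.8%) against 16.6% of all genes with a window. The AP-1 motif TGANTCA was found in 5 (13.9%) against 8.97%. No match of one motif overlapped a match of another in these promoters. A gene was counted when any of its windows held a match. Of the 36 genes, 22 rose with overload. These 22 included 2 of the 5 genes with a CArG box, 6 of the 10 with a TEAD motif and 4 of the 5 with an AP-1 motif. Among the 84 other actin pathway genes with a window, 14 held a TEAD motif and 8 an AP-1 motif. A match describes these letters in this window and is not a binding site shown in these cells.

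Library totals were 500402 to 754456 counts for sham and 850857 to 1124210 for overloaded muscle, and no library was a copy of another. Levels are given as CPM, counts per 1e6 counts of the tested genes with TMM scaling. Reads of olfactory and vomeronasal receptor genes, a measure of background, made up 781 to 1819 per 1e6 of all counts in sham and 232 to 1092 in overloaded libraries, and a fit with this share as a term is given below as the background covariate. Mitochondrial reads made up 8.72% to 11% in sham and 7.71% to 11.1% in overloaded libraries. Pdgfra, the gene that defines the sort, stood at 769, 780 and 1021 CPM in sham and at 607, 416 and 759 CPM in overloaded muscle, without overlap. It missed the threshold (log2 fold change -0.53, standard error 0.21, edgeR adjusted p = 0.0624), and was called lower in 8 of 16 alternative settings, with adjusted p values of 0.0163 to 0.327 over all 16. The lowest was with the background covariate, where the log2 fold change was -1.05. All 14 FAP markers on the list were tested, of which 2 rose and 8 fell, and their sum was 59530 to 76780 CPM for sham and 73340 to 85740 CPM for overloaded muscle. That sum joins opposite changes, since Col1a1 and Col3a1, the 2 that rose, together stood at 19490 to 24380 and 51760 to 58770 CPM, and the other 12 at 38900 to 52400 and 18750 to 26970 CPM. Of 12 leukocyte markers 0 passed the count filter, and Adgre1, Lyz2, Cd52, Laptm5, Tyrobp and Coro1a had 0 counts in all 6 libraries. The 12 together summed to 17.2 to 24.9 CPM for sham and 1.92 to 18.8 CPM for overloaded muscle, a trace carried by the markers that were detected. The 10 pericyte and smooth muscle markers, of other cells rich in actin, summed to 145 to 195 CPM for sham and 108 to 165 CPM for overloaded muscle. Of these 3 were tested and 0 passed with edgeR, DESeq2 or limma-voom, with 1 lower at an unadjusted p under 0.05 by edgeR. Myh11, the smooth muscle myosin on the list, had 17 counts over the sham and 11 over the overloaded libraries. Cspg4, also on it, had 139 and 228 counts and did not pass (edgeR adjusted p = 0.514). The 10 endothelial markers summed to 127 to 233 CPM and to 33.6 to 99.1 CPM in the same order. Tek alone was 106 to 127 and 23.8 to 31.7 CPM and was called lower (log2 fold change -2.13, edgeR adjusted p = 5.59e-07), while the other 9 summed to 17.5 to 106 and 8.10 to 75.2 CPM. The 7 markers of satellite cells and myoblasts summed to 43.6 to 61.6 CPM and to 94.3 to 133 CPM, of which Vcam1 alone was 41.5 to 60.1 and 92.3 to 126 CPM, and Myod1 had 0 counts throughout. The 6 tenocyte markers, of the fibroblasts of tendon, summed to 125 to 162 CPM and to 3375 to 4346 CPM, of which Thbs4 alone was 84.8 to 114 and 3324 to 4254 CPM and the other 5 together 40.4 to 55.8 and 42.3 to 91.4 CPM. Thbs4 was called, and the other 2 tested, Fmod and Kera, did not pass (edgeR adjusted p = 0.502 and 0.939). The 9 myofibre markers summed to 48.7 to 76.7 and 23.1 to 32.4 CPM, and the 6 Schwann cell markers to 606 to 886 and 304 to 472 CPM. The part of other cell types in the results was not tested. In bulk libraries, fewer cells of a type and less RNA per cell cannot be told apart.

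The 37 genes, chosen with earlier results of these data known, rose with overload far more often than they fell. Their direction is therefore not independent evidence, and it is not that of other actin pathway genes, given below. Of the 37 genes, 23 rose (62.2%), 0 fell and 14 did not pass the test. Over the 7207 genes tested 29.3% passed, 15% with a rise and 14.3% with a fall (quasi-likelihood test of edgeR with Benjamini-Hochberg adjustment across all genes tested, threshold 0.05). DESeq2 and limma-voom also called 0 of the 37 genes lower, and 0 were lower at an unadjusted p under 0.05 by edgeR. The median log2 fold change of the 37 genes was 0.94, against -0.02 over all genes tested, and 16 of the 37 lay in the top 10% of all log2 fold changes. Among the 2371 tested genes whose mean level lay within the middle part of the members' range, 62.1 to 543 CPM, 22.5% rose. The rise was at least 2-fold for 15 of the 23 genes. Among all genes tested it was more than 2-fold for 700 of the 1084 that rose, a like share. In 26 of the 37 genes every overloaded library stood above every sham library, which held for 21.2% of all genes tested, with the reverse for 20.3% and no overlap either way for 41.5%. Together the 37 genes took 1.35%, 1.07% and 1.06% of all counts in the sham libraries, in the order 1 to 3 used throughout, and 1.88%, 2.21% and 2.33% in the overloaded ones. Their summed level was 11917 ± 1735 CPM in sham and 22644 ± 2017 CPM in overloaded muscle (mean ± SD, n = 3 per group, as for all such values), a ratio of 1.9 with no overlap, and without the actin and thymosin genes the ratio was 2.19.

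**Figure D1:**
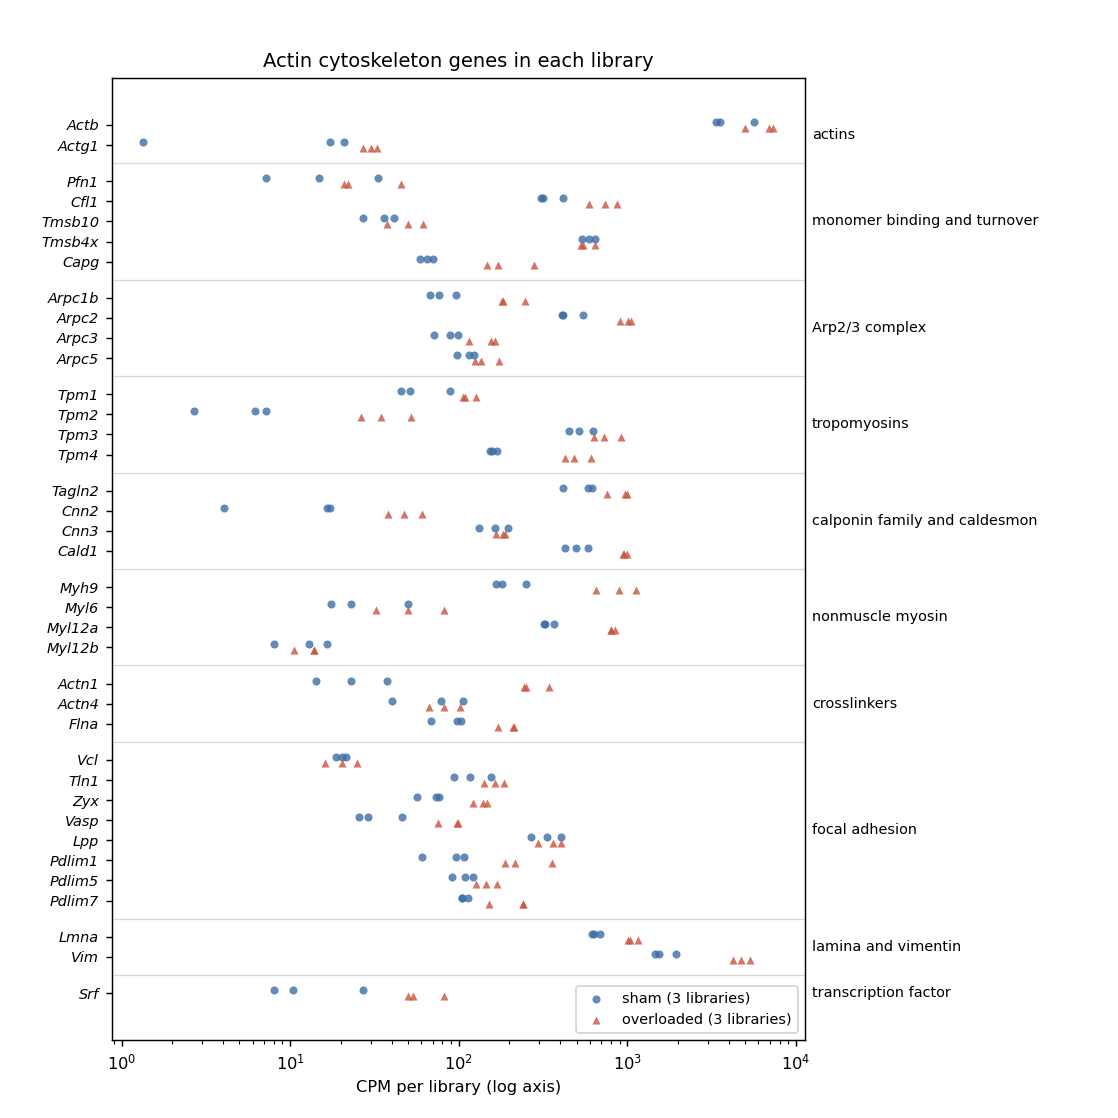
Level of each of the 37 genes in every library, as CPM on a log axis, grouped by role, with circles for the 3 sham and triangles for the 3 overloaded libraries. The overloaded libraries stand above all sham libraries for 26 genes, and for genes such as Tmsb4x, Vcl and Lpp the groups lie over each other.

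Actb, which encodes the main cytoplasmic actin (chromosome 5, 142903115 to 142906754), stood at 5623, 3526 and 3376 CPM in sham libraries 1 to 3 and at 4979, 7361 and 6972 CPM in overloaded libraries 1 to 3. The groups overlapped, since sham library 1 stood above overloaded library 1. Its log2 fold change was 0.62 with a standard error (SE) of 0.21, or 1.54-fold (edgeR adjusted p = 0.0265). That call was lost without sham library 2 (edgeR adjusted p = 0.155), without sham library 3 (0.149), without overloaded library 2 (0.0737) and without overloaded library 3 (0.0687), at log2 fold changes of 0.51 to 0.59. With the background covariate the log2 fold change was larger, 0.84, and the test was not passed (0.069). Actg1, which encodes the other cytoplasmic actin, had 23 sham and 80 overloaded counts. It stood at 17.2, 20.7 and 1.35 CPM in sham and at 26.9, 32.6 and 30.1 CPM in overloaded muscle. The groups did not overlap, with sham library 3, a single count, far below the other libraries. The test was not passed (log2 fold change 1.26, standard error 0.49, edgeR adjusted p = 0.0547), and was passed without sham library 2 (0.0337), with limma-voom (log2 fold change 1.90, adjusted p = 0.0197), with no count filter (0.0468), with the replicate block (0.0424) and with the background covariate (0.0333), while without sham library 3 the log2 fold change was 0.68.

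Among the proteins that hold, sever or cap actin, Capg and Cfl1 rose and the profilin and thymosin genes did not pass the test. Capg encodes a protein that caps filament ends. It stood at 58.7, 70.5 and 64.6 CPM in sham and at 146, 278 and 171 CPM in overloaded muscle, so the lowest overloaded library was above the highest sham library (log2 fold change 1.62, standard error 0.26, edgeR adjusted p = 1.83e-05). Cfl1, the gene for the severing protein cofilin-1 (chromosome 19, 5490455 to 5495201), went from 418, 307 and 315 CPM to 593, 863 and 738 CPM, again without overlap (log2 fold change 1.07, standard error 0.21, edgeR adjusted p = 0.000209). Tmsb4x, which encodes the monomer-holding peptide thymosin beta-4, stood at 590, 641 and 536 CPM in sham and at 643, 534 and 544 CPM in overloaded muscle. Its groups lay over each other, and its log2 fold change of -0.04 had a 95% interval, from the SE, of -0.42 to 0.35, which does not reach a 2-fold change in either direction. Tmsb10, for a related thymosin, stood at 35.8, 41.5 and 26.9 CPM and at 61.6, 37.6 and 49.7 CPM, and its groups overlapped through overloaded library 2 (log2 fold change 0.54, standard error 0.32, edgeR adjusted p = 0.215). Pfn1, for profilin-1, had 32 sham and 77 overloaded counts, overlapping groups and a log2 fold change of 0.74 with an SE of 0.46 (edgeR adjusted p = 0.239), and at that depth the 95% interval ran from -0.16 to 1.64.

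Of the 4 genes for Arp2/3 subunits among the 37, 3 rose, and in all 4 the overloaded libraries stood above the sham libraries. These are only part of the complex. Subunit genes outside the 37, named after their values were seen, did not pass. They were Actr2 (edgeR adjusted p = 0.142), Actr3 (0.193), Arpc1a (0.082), Arpc5l (0.702) and Arpc4 (0.597, log2 fold change -0.20). Arpc2, a subunit at the core of the complex (chromosome 1, 74236084 to 74268209), went from 544, 411 and 416 CPM to 1052, 907 and 1013 CPM (log2 fold change 1.12, standard error 0.20, edgeR adjusted p = 7.39e-05). Arpc1b, which encodes one of the alternative forms of another subunit, went from 95.9, 76.7 and 67.3 CPM to 183, 181 and 248 CPM (log2 fold change 1.34, standard error 0.24, edgeR adjusted p = 7.18e-05). Arpc3, a smaller subunit, went from 98.8, 89.2 and 71.3 CPM to 156, 115 and 163 CPM, with overloaded library 2 nearest to the sham group (log2 fold change 0.75, standard error 0.24, edgeR adjusted p = 0.0189). It lost the call without sham library 3 (edgeR adjusted p = 0.0988), without overloaded library 3 (0.0675) and with the background covariate (0.258), at log2 fold changes of 0.64 to 0.68. Arpc5, another small subunit, stood at 123, 97.5 and 114 CPM in sham and at 135, 174 and 125 CPM in overloaded muscle. Its groups all but touched, and it missed the threshold (edgeR adjusted p = 0.256).

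The tropomyosin genes, whose products lie along the filament groove, rose in 3 of 4 cases and by unequal amounts. Tpm2 (chromosome 4, 43514711 to 43523765) stood at 7.16, 6.22 and 2.69 CPM in sham and at 51.9, 26.3 and 34.7 CPM in overloaded muscle. That is 10 against 105 counts and a log2 fold change of 2.82 (standard error 0.49, edgeR adjusted p = 4.84e-05). Tpm4 (chromosome 8, 72134975 to 72153142) went from 169, 153 and 157 CPM to 428, 485 and 606 CPM, with tight sham libraries and no overlap (log2 fold change 1.66, standard error 0.21, edgeR adjusted p = 5.59e-07). Tpm1 went from 51.5, 89.2 and 45.7 CPM to 126, 105 and 109 CPM, where sham library 2 was the highest of its group and still below all overloaded libraries. Its log2 fold change was 0.90 (standard error 0.26, edgeR adjusted p = 0.00978), a call that was lost without sham library 3 (0.0766). Tpm3, with 629, 448 and 514 CPM in sham and 920, 631 and 731 CPM in overloaded libraries, did not pass (log2 fold change 0.52, standard error 0.21, edgeR adjusted p = 0.0548). Its lowest overloaded and highest sham libraries were nearly level. It passed in 4 of 16 alternative settings, by edgeR without sham library 1 (0.0287), without overloaded library 2 (0.0216) and with a minimum count of 30 (0.0493). The remaining one was limma-voom (adjusted p = 0.0489).

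The calponin family and caldesmon, which bind along filaments and curb the action of myosin on them, rose in 3 of 4 cases. Cnn2, for calponin-2, went from 17.2, 16.6 and 4.04 CPM to 60.6, 47.7 and 38.2 CPM, or from 23 to 134 counts (log2 fold change 2.0, standard error 0.41, edgeR adjusted p = 0.00043). Cald1, for caldesmon, went from 494, 587 and 427 CPM to 956, 937 and 995 CPM (log2 fold change 0.94, standard error 0.20, edgeR adjusted p = 0.000493). Tagln2, for the calponin-like protein transgelin-2, went from 586, 417 and 619 CPM to 999, 762 and 962 CPM. The groups did not overlap, and the log2 fold change was 0.75 (standard error 0.20, edgeR adjusted p = 0.00598). That call was lost without sham library 2 (log2 fold change 0.60, adjusted p = 0.0686), and with the background covariate, where the log2 fold change was 0.38 (0.41). Cnn3, for calponin-3, stood at 165, 195 and 132 CPM in sham and at 166, 188 and 183 CPM in overloaded muscle, with overlapping groups and a 95% interval of -0.30 to 0.57 on the log2 scale.

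Of the 4 genes of nonmuscle myosin, 2 rose, a heavy and a light chain. Myh9, the heavy chain of nonmuscle myosin IIA (chromosome 15, 77760587 to 77842175), stood at 180, 251 and 167 CPM in sham and at 651, 1124 and 887 CPM in overloaded muscle. The lowest overloaded library was well above every sham library (log2 fold change 2.16, standard error 0.23, 4.47-fold, edgeR adjusted p = 1.87e-08). Myl12a, a regulatory light chain (chromosome 17, 70993656 to 71002878), went from 322, 365 and 323 CPM to 841, 799 and 800 CPM, with little spread in either group (log2 fold change 1.27, standard error 0.20, edgeR adjusted p = 9.43e-06). Myl12b, the neighbouring gene for a near-identical light chain, stood at 12.9, 16.6 and 8.07 CPM and at 10.6, 13.8 and 13.9 CPM, with 23 sham and 34 overloaded counts. Its groups overlapped, with a log2 fold change of 0.06 with an SE of 0.51 (edgeR adjusted p = 0.948). Exons of both overlap those of another gene model in GENCODE M21 that also bears the name Myl12b. Myl6, an essential light chain, stood at 50.1, 22.8 and 17.5 CPM in sham and at 50, 81.5 and 32.4 CPM in overloaded muscle. Its groups overlapped through sham library 1 (log2 fold change 0.83, standard error 0.38, edgeR adjusted p = 0.108), and it passed without sham library 1 (log2 fold change 1.49, adjusted p = 0.0138), without overloaded library 3 (1.12, 0.0363) and with the background covariate (1.60, 0.0297).

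The crosslinkers held the steepest rise of the 37 genes. Actn1, for alpha-actinin-1, which ties filaments into bundles and anchors them at adhesions (chromosome 12, 80167547 to 80260371), stood at 14.3, 22.8 and 37.7 CPM in sham and at 243, 252 and 345 CPM in overloaded muscle. It went from 49 to 752 counts, 11-fold (log2 fold change 3.46, standard error 0.29, edgeR adjusted p = 2.06e-10), and between 3.08 and 3.97 over 16 alternative settings. Actn4, for the related alpha-actinin-4, stood at 106, 78.8 and 40.4 CPM in sham and at 102, 66.5 and 82.1 CPM in overloaded muscle, fully overlapping (log2 fold change 0.17, standard error 0.29, edgeR adjusted p = 0.714). Flna, for filamin A, which joins filaments into networks, went from 68.7, 97.5 and 104 CPM to 170, 213 and 211 CPM (log2 fold change 1.14, standard error 0.24, edgeR adjusted p = 0.000425).

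Of the 8 focal adhesion genes, 4 rose and 4 did not pass the test. Pdlim1, a PDZ and LIM protein that binds alpha-actinin, went from 95.9, 60.1 and 108 CPM to 189, 217 and 360 CPM (log2 fold change 1.51, standard error 0.26, edgeR adjusted p = 6.23e-05). Vasp, which promotes filament growth, went from 45.8, 29.0 and 25.6 CPM to 98.1, 99.1 and 75.2 CPM (log2 fold change 1.43, standard error 0.29, edgeR adjusted p = 0.000403). Zyx, for zyxin, which recruits VASP to strained filaments, went from 73.0, 76.7 and 56.5 CPM to 139, 147 and 121 CPM (log2 fold change 0.99, standard error 0.24, edgeR adjusted p = 0.00227). Pdlim7, of the PDZ and LIM family, went from 105, 114 and 105 CPM to 152, 241 and 241 CPM (log2 fold change 0.97, standard error 0.23, edgeR adjusted p = 0.00202). Groups did not overlap for any of these 4 genes. Tln1, for talin-1, which couples integrins to actin, stood at 117, 93.3 and 155 CPM in sham and at 141, 186 and 164 CPM in overloaded muscle, with sham library 3 above overloaded library 1 (log2 fold change 0.41, standard error 0.23, edgeR adjusted p = 0.197). Vcl, for vinculin, which reinforces talin under tension, stood at 21.5, 18.7 and 20.2 CPM in sham and at 20.2, 25.1 and 16.2 CPM in overloaded muscle. With 39 and 55 counts its log2 fold change of 0.02 had a 95% interval of -0.77 to 0.81. The groups of Vcl lay over each other. Lpp, for a protein of the zyxin family, stood at 269, 336 and 405 CPM in sham and at 363, 295 and 403 CPM in overloaded muscle, also over each other (edgeR adjusted p = 0.848). Pdlim5, of the PDZ and LIM family, stood at 122, 91.3 and 109 CPM and at 169, 144 and 127 CPM, without overlap (log2 fold change 0.45, standard error 0.23, edgeR adjusted p = 0.152).

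Vim, which encodes the intermediate filament vimentin of mesenchymal cells (chromosome 2, 13573927 to 13582826), went from 1937, 1541 and 1469 CPM to 4221, 4726 and 5322 CPM (log2 fold change 1.53, standard error 0.20, edgeR adjusted p = 6.48e-07). Lmna, for lamins A and C of the nuclear lamina (chromosome 3, 88480147 to 88509956), went from 614, 635 and 693 CPM to 1016, 1157 and 1035 CPM. Its groups were well apart although the change was only 1.65-fold (log2 fold change 0.72, standard error 0.19, edgeR adjusted p = 0.00457), and with the background covariate it did not pass at a like log2 fold change of 0.74 (0.0661). Srf, the transcription factor (chromosome 17, 46548329 to 46556175), stood at 27.2, 10.4 and 8.07 CPM in sham and at 53.9, 50.2 and 82.1 CPM in overloaded muscle. It went from 30 to 167 counts (log2 fold change 1.99, standard error 0.39, edgeR adjusted p = 0.000243). Sham library 1 was the highest of its group, and without it the log2 fold change was 2.80, 6.94-fold in place of 3.97-fold.

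**Figure D2:**
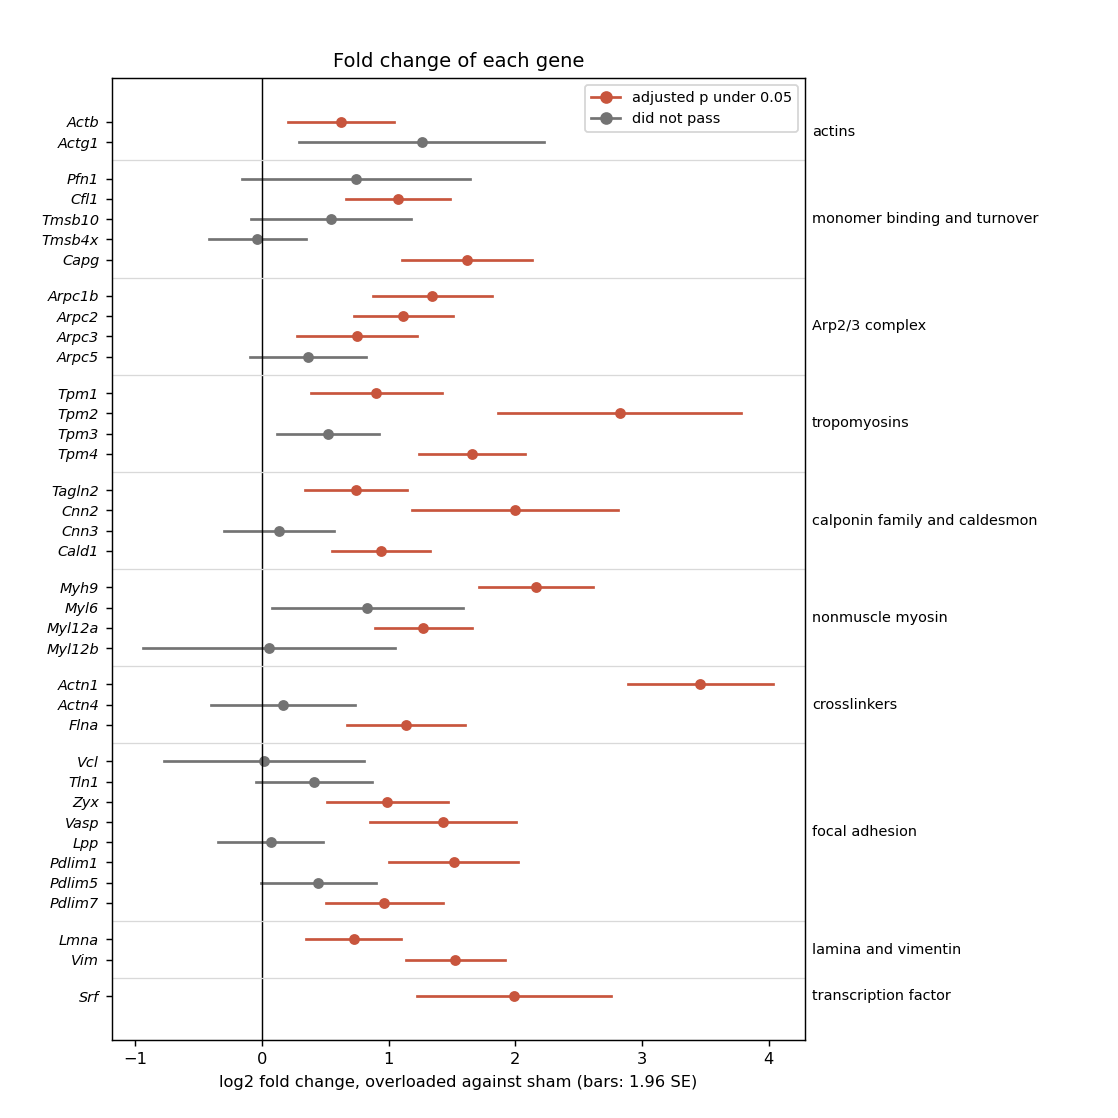
Log2 fold change of each gene, overloaded against sham, with bars for the 95% interval, coloured by whether the adjusted p was under 0.05. All 23 genes that passed lie to the right of 0, from 0.62 for Actb to 3.46 for Actn1, and of the 14 others 13 have a value above 0.

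The 14 genes that did not pass are not shown to be unaltered. For 5 of them the 95% interval reached a log2 fold change of 1 or more, and for the other 9 it ended below 1. They included 5 genes under 50 CPM in both groups, against 2 of the 23 that rose. The median count over all libraries was 488.5 for the 14 and 801 for the 23. In sham, library 3 was the lowest of its group for 19 of the 37 genes and library 1 the highest for 17. Among overloaded libraries the highest was library 1 for 11 genes, library 2 for 16 and library 3 for 10. The median coefficient of variation of the 37 genes was 20% in sham and 18% in overloaded libraries.

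Some of the 37 genes share sequence with other genes at the 3' end, where these libraries are read. In the last 500 bases of the principal transcript in GENCODE M21, an annotation of the GRCm38 build, 28 of the 37 genes shared no stretch of 40 bases with a transcript of another gene on either strand. Of those 28, 19 rose. In 7 genes at least 50% of such stretches were shared, and 2 of the 7, Cfl1 and Arpc1b, rose. For Vcl 100% was shared with Ap3m1 and for Arpc1b 100% with Pdap1, both on the opposite strand. Of the end of Myl6, 62.9% was shared, mostly with 5 processed pseudogenes, and of that of Tmsb10, 69.2% with other genes. For Actn4, 60.1% was shared with Capn12, and for Tpm3, 63.1% with its near copy Tpm3-rs7. The sources used here do not say whether reads there were set aside as ambiguous, and the part of shared ends in the missed calls was not tested. For 14 of the 37 genes at least 1 exon overlapped an exon of another gene, on the opposite strand in 11, and without a stated strand setting their reads cannot be told apart.

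The balance between related genes was read in each library as a share of their joint counts, and described without a test. The related genes were chosen with earlier results known, so a separation can restate the rises given above. Shares of other gene pairs were not examined, and the tropomyosin shares are parts of the same total. Actn1 made up 11.9%, 22.5% and 48.3% of the counts of Actn1 and Actn4 in sham and 70.5%, 79.1% and 80.8% in overloaded libraries. The sham libraries were widely spread, and none reached the lowest overloaded library. Myh9 made up 75.5%, 64.4% and 67.0% of the counts of Myh9 and Myh10, the heavy chains of nonmuscle myosin IIA and IIB, in sham and 93.9%, 95.9% and 94.3% in overloaded libraries. Myh10 itself fell, from 93.2 ± 41.3 to 47.7 ± 5.44 CPM (log2 fold change -0.94, standard error 0.29, edgeR adjusted p = 0.0153). That call was lost without sham library 2 (0.204), without overloaded library 1 (0.0737) and with the background covariate (0.345), at log2 fold changes of -0.82 to -0.56. Within the tropomyosins, Tpm3 went from 73.4%, 64.3% and 71.4% of their counts to 60.3%, 50.6% and 49.4%. Tpm4 went from 19.7%, 22.0% and 21.9% to 28.1%, 38.9% and 40.9%. Arpc1b made up 33.7%, 37% and 36.5% of the counts of Arpc1a and Arpc1b, the alternative forms of that subunit, in sham and 43.4%, 48.8% and 55.2% in overloaded libraries. Arpc1a was at 146 ± 38.2 and 210 ± 25.7 CPM (edgeR adjusted p = 0.082). Cfl1 went from 78.9%, 71.2% and 74.8% of the counts of Cfl1 and Cfl2 to 86.9%, 88.1% and 88.1%, with Cfl2, the muscle form of cofilin, at 114 ± 9.32 and 102 ± 13.7 CPM (edgeR adjusted p = 0.65). The groups did not overlap in any of these 6 shares. In the other shares examined without overlap, Tpm2 had 0.37% to 0.89% of the tropomyosin counts in sham and 2.11% to 3.41% in overloaded libraries, Tmsb10 4.79% to 6.08% and 6.58% to 8.74% of the thymosin counts, and Myl12a 95.7% to 97.6% and 98.3% to 98.8% of the counts of the regulatory light chains. The share of Actb within Actb and Actg1 was above 99% in every library, and the shares of Lmna among the lamins and of Arpc5 among its alternative forms overlapped between groups.

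**Figure D3:**
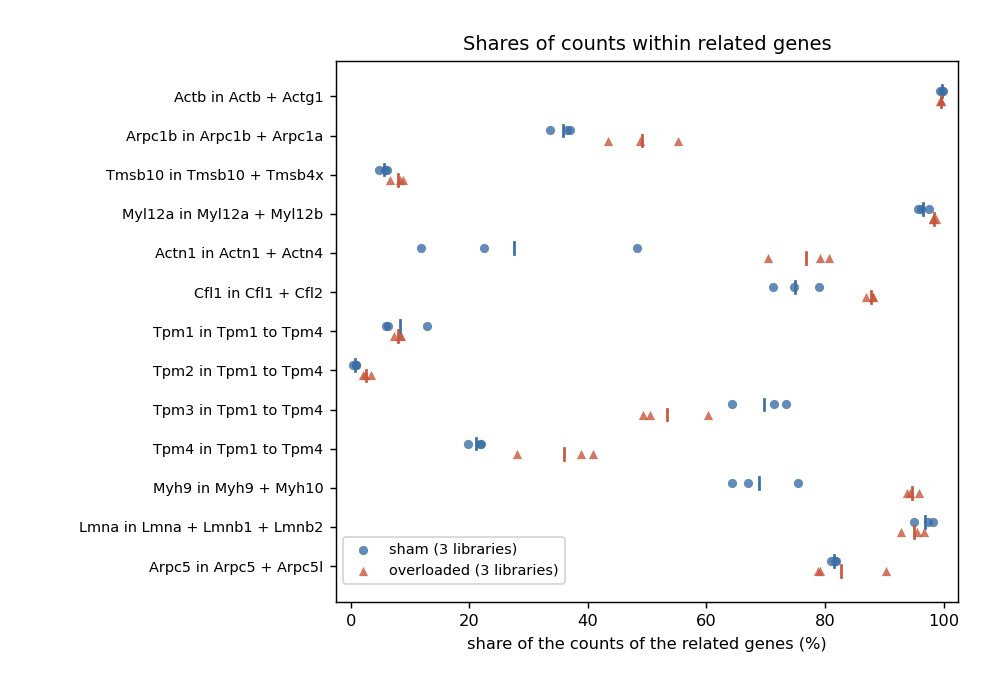
Share of the counts of related genes taken by the first gene named on each line (%), with circles for sham libraries, triangles for overloaded libraries and short lines for group means. The groups stand apart for 9 of the 13 shares, most widely for Actn1, and overlap for Actb, Tpm1, Lmna and Arpc5. The tropomyosin shares are parts of the same total and are not separate results. No background rate is given, since shares of other gene pairs were not examined.

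Other genes of the actin system were read beside the 37. Of 107 other genes of the same pathways, 87 had enough counts to test. Of these 20 rose (23%), 11 fell and 56 did not pass, while 15% of all genes tested rose and 14.3% fell. Levels were not matched in this comparison. Their median log2 fold change was -0.03, against 0.94 for the 37 genes. With the background covariate 10 rose and 8 fell, while 6.91% of all genes tested rose and 6.23% fell. After thinning to equal depth 13 rose and 12 fell, while 15% of all genes tested rose and 13.8% fell. Of the 11 other Arp2/3 subunits and activators tested 0 passed with edgeR, DESeq2 or limma-voom, and at an unadjusted p under 0.05 each of these tools had 1 higher and 1 lower.

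Among regulators of SRF, Scai, which encodes a repressor of MRTF-driven transcription, fell from 50.1, 39.4 and 65.9 CPM to 18.3, 16.3 and 22.0 CPM (log2 fold change -1.47, standard error 0.34, edgeR adjusted p = 0.0014). Elk3, a partner of SRF of the ETS family, rose from 14.2 ± 6.30 to 39.4 ± 3.93 CPM (log2 fold change 1.44, standard error 0.39, edgeR adjusted p = 0.00504), and did not pass with the background covariate at a log2 fold change of 1.38 (0.104). Mrtfb, for MRTF-B, was at 31.6 ± 4.17 and 15.9 ± 9.44 CPM without overlap (edgeR adjusted p = 0.0643), called lower without overloaded library 3 (0.0143) and with limma-voom (log2 fold change -1.19, adjusted p = 0.0296), and Mrtfa, for MRTF-A, had 14 and 23 counts, too few to test. Arhgdia rose from 78.0 ± 19.8 to 172 ± 67.2 CPM (log2 fold change 1.11, standard error 0.28, edgeR adjusted p = 0.00342). Rhob, a small GTPase under rapid control, fell from 348, 338 and 323 CPM to 169, 173 and 162 CPM (log2 fold change -1.0, standard error 0.21, edgeR adjusted p = 0.000377). Rnd3, an atypical small GTPase, fell from 291 ± 35.6 to 139 ± 6.24 CPM (log2 fold change -1.06, standard error 0.21, edgeR adjusted p = 0.000272). Myl9, a smooth muscle type light chain, had 21 and 36 counts, too few to test.

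Of 16 formins, bundlers and crosslinkers, 8 rose and 2 fell. Fscn1, for the bundling protein fascin, rose from 129, 64.3 and 49.8 CPM to 295, 399 and 361 CPM (log2 fold change 2.11, standard error 0.27, edgeR adjusted p = 1.83e-06). Palld, for palladin, which binds alpha-actinin, rose from 26.4 ± 13.3 to 120 ± 30.8 CPM (log2 fold change 2.23, standard error 0.32, edgeR adjusted p = 4.02e-06), and Enah, a relative of VASP, by a log2 fold change of 1.32 (standard error 0.31, edgeR adjusted p = 0.00146). Diaph1, a formin, fell from 119 ± 26.6 to 53.3 ± 23.2 CPM (log2 fold change -1.17, standard error 0.29, edgeR adjusted p = 0.00291). Formins did not all fall, since Diaph3, picked after its values were seen, rose from 7 to 61 counts (log2 fold change 2.62, standard error 0.61, edgeR adjusted p = 0.00152). Diaph2, Fmnl2 and Daam1 did not pass. Of 12 monomer-binding, capping and severing genes, 2 rose and 1 fell. Wdr1, which helps cofilin, rose from 90.1 ± 6.24 to 233 ± 44.4 CPM (log2 fold change 1.36, standard error 0.23, edgeR adjusted p = 3.96e-05). Capzb, for a capping subunit, rose by a log2 fold change of 0.74 (standard error 0.22, edgeR adjusted p = 0.00989), a call lost without sham library 3 (log2 fold change 0.70, adjusted p = 0.051) and with the background covariate (0.69, 0.168). Gsn, for gelsolin, a severing protein that FAPs make in large amounts and that also serves as a FAP marker, fell from 19735, 13813 and 24176 CPM to 12296, 8570 and 6556 CPM (log2 fold change -1.07, standard error 0.23, edgeR adjusted p = 0.000797).

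Of 16 other focal adhesion genes, 4 rose and 3 fell. Tln2, for talin-2, rose from 31.5, 35.3 and 32.3 CPM to 119, 129 and 134 CPM (log2 fold change 1.95, standard error 0.26, edgeR adjusted p = 1.44e-06). Fhl2, a LIM protein, rose from 16 to 108 counts (log2 fold change 2.25, standard error 0.47, edgeR adjusted p = 0.000483), and its log2 fold change was 1.46 (0.15) with the background covariate. Tns1, for tensin-1, which marks mature adhesions, fell from 305, 353 and 366 CPM to 147, 159 and 120 CPM (log2 fold change -1.26, standard error 0.21, edgeR adjusted p = 3.6e-05). Of 10 genes of the lamina and nuclear envelope, 3 rose and 1 fell. Banf1, which encodes a DNA-bridging protein that binds lamins, rose from 166 ± 54.5 to 571 ± 103 CPM (log2 fold change 1.76, standard error 0.24, edgeR adjusted p = 1.36e-06). Lmnb2, for lamin B2, rose from 9 to 63 counts, a call lost with the background covariate (log2 fold change 1.72, edgeR adjusted p = 0.192). Lmnb1, for lamin B1, was called at an edgeR adjusted p of 0.0483 but not in 11 of 15 alternative settings. Sun2, which links the lamina to the cytoskeleton, fell from 44.2 ± 8.86 to 13.2 ± 3.84 CPM (log2 fold change -1.76, standard error 0.38, edgeR adjusted p = 0.000592). Of the ezrin, radixin and moesin genes, which tie actin to the membrane, Msn, for moesin, rose from 196 ± 47.2 to 381 ± 7.78 CPM (log2 fold change 0.97, standard error 0.22, edgeR adjusted p = 0.000897) and the other 2 tested did not pass.

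**Figure D4:**
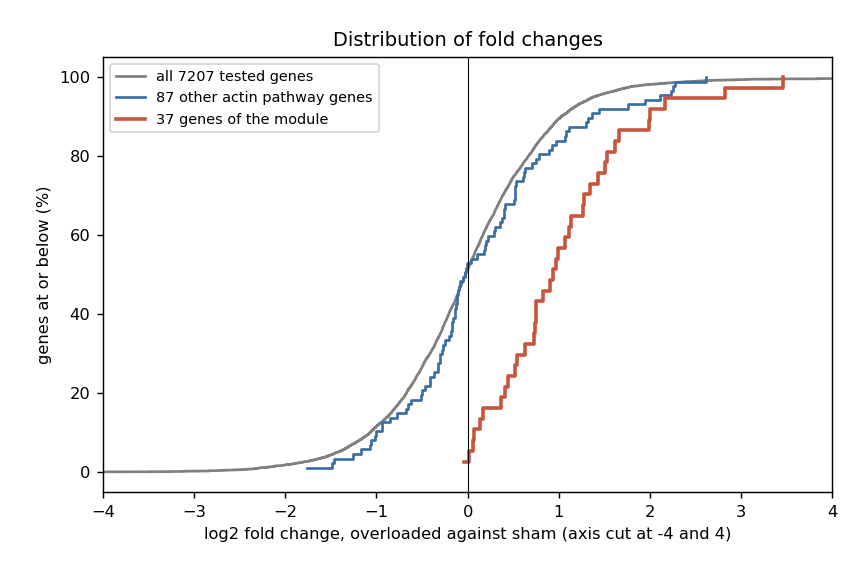
Cumulative percentage of genes by log2 fold change, overloaded against sham, for all 7207 tested genes, 87 other genes of the actin pathways and the 37 genes described. The curve of the 37 genes lies to the right, with its median at 0.94, while that of the other pathway genes has its median at -0.03.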

How the data were processed

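RNA of sorted FAPs was measured in 3 sham and 3 overloaded libraries, grouped by the treatment label. The deposited table holds raw counts, as whole reads for each gene without normalisation. The submitters' processing notes name Trim Galore (0.6.6), HISAT2 (2.2.1), featureCounts (2.0.1), DESeq2 (1.28.1) and the build GRCm38. No source used here gives the annotation, strand setting, rule for ambiguous reads or use of molecular identifiers, so reads may not be independent molecules.

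Here the counts were fitted with edgeR 4.0.16 in R 4.3.3 (robust quasi-likelihood F test, TMM scaling, which trims extreme ratios, and filterByExpr at a count of 10 in a library and 15 in all), with Benjamini-Hochberg adjustment over all 7207 genes tested. The SE is the log2 fold change divided by the square root of F. The fit was tested on simulated data. Alternatives were RLE, upper quartile and library-size scaling, DESeq2 1.42.0, limma-voom 3.58.1, other count filters, thinning, a replicate block, leaving out each library, and the background covariate, the share of olfactory and vomeronasal receptor reads. Gene positions and 3' ends came from GENCODE M21 and promoters from RefSeq.

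The 37 genes and all lists were chosen with earlier results of these data known, so their direction is not independent evidence, and no set test was made. All 37 are named. From each of 8 wider lists the text names up to 3 called genes by adjusted p, the leading gene that fell where none of these did, and Mrtfa, Mrtfb, Arpc1a, Myl9, Myh10, Lmnb1 and Cfl2. Pdgfra is named as the gene of the sort, and marker genes only as values of their lists. Settings for the wider genes, sums and shares were added after seeing the data. The count of 1 wider list and the value of 1 marker gene are not reported here.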

Additional observations from a re-analysis of the deposited data

How the results depend on the processing

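The number of the 37 genes that rose was 20 to 25 over all alternatives run, against 23, and 0 fell in each. It was 20 to 25 when 1 library was left out (lowest without sham replicate 3), 23 with DESeq2, 25 with limma-voom, 21 with the background covariate and 24 with the replicate number as a block, the addition being Actg1 (edgeR adjusted p = 0.0424). Over all genes the block gave 2036 calls in place of 2111. Same-numbered libraries did not deviate together (correlations of 0.00822 to 0.0149). With 3 libraries per group these values cannot show whether the libraries were paired. No scaling moved the median of all genes by over 0.1.

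With the background covariate 947 genes passed, 498 higher and 449 lower, and 10 wider pathway genes rose in place of 20. After thinning to the smallest library 13 of these wider genes rose, and 15% of all genes tested. The cause was not tested. Of the values of single members under an alternative, 540 kept direction and call, 12 lost a call, 12 gained one and 19 changed sign, all of genes that were not called. For Tmsb4x (-0.04) the log2 fold change was 0.0505 with no count filter, 0.0164 with the covariate and -0.0966 to 0.0331 with 1 library left out. For Vcl (0.02) it was -0.0149 with upper quartile scaling, -0.0522 with library size only, -0.0289 with limma-voom, -0.00457 with the replicate block and -0.12 to 0.18 with 1 library left out. For Lpp (0.07) it was -0.00385 after thinning, -0.25 with the covariate and -0.0334 to 0.25 with 1 library left out. For Myl12b (0.06) it was -0.00641 with library size only. With 1 library left out it was -0.18 to 0.28 for Myl12b and -0.13 to 0.58 for Actn4 (0.17). Cfl2 (-0.16) was at 0.0519 with the covariate. Low counts such as those of Pfn1, Myl12b and Vcl leave a wide range of change possible.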

Other observations

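Ilk, the gene for integrin-linked kinase, a core focal adhesion protein, had 0 counts in all 6 libraries, a value picked after it was seen. Of the last 500 bases of its principal transcript, 92.6% of the 40-base stretches also lie in a transcript of the neighbouring gene Taf10 on the opposite strand, which had 117 counts. Capza1, for a capping subunit, had 10 sham and 13 overloaded counts, and 51.6% of such stretches were shared with 1 pseudogene. Myl9, with 21 and 36 counts, shared 0% of its end.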
